A study of Mus musculus with 18 samples.

Results

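The replacement histone variants described here are 9 mouse genes, H2afx, H2afz, H2afv, H2afy, H2afj, H3f3a, H3f3b, H1f0 and H1fx. They were chosen by these symbols among the 40800 Ensembl genes of the deposited count table. All 9 were found, and all 9 were among the 13938 genes with enough counts to be tested. RNA was measured by poly-A RNA-seq in whole lenses of C57BL/6J mice, in 18 libraries that each held several pooled lenses. There were 3 libraries in each of 6 groups. The Cryaa-R49C knock-in line, which carries an arginine-to-cysteine change in αA-crystallin, was sampled at 2 days of age as lenses with no mutant allele (wild-type, WT), 1 (heterozygous, het) or both (homozygous, homo). The Cryab-R120G knock-in line, with an arginine-to-glycine change in αB-crystallin, was sampled at 14 days of age as WT, het and homo lenses. Line and age therefore changed together and cannot be told apart. One label field of the 6 Cryab mutant libraries names the other line's allele, and the groups here follow the sample titles; a single-base change cannot be checked from gene counts. Nothing states that the pools of a group came from separate litters, so the tests measure the spread between pools. The knock-in alleles are present in every cell of the mouse, and αA- and αB-crystallin are small heat shock proteins that the lens makes in large amounts.

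Canonical histones are made from clustered genes mainly while DNA is copied, and their mRNAs end in a stem-loop in place of a poly-A tail. Replacement variants are made from single genes at all times, mainly with poly-A mRNAs. They take the place of canonical histones in cells that divide rarely or have stopped dividing. Lens fibre cells leave the cell cycle, fill with crystallin and finally lose their nuclei, so that chromatin in a whole lens comes from a dividing epithelium and from fibre cells at several stages.

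H3f3a and H3f3b both encode histone H3.3, and their coding sequences of 411 bases differed at 95 bases and at 0 of 136 encoded residues (transcripts of the GENCODE vM21 annotation, GRCm38). The first 60 coding bases are shown because the same protein was counted from distinct mRNAs, and capitals mark the bases that differ within the pair.
H3f3a: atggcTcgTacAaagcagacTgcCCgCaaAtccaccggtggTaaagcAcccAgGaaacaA
H3f3b: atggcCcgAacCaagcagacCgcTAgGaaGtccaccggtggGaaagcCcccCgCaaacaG
The longest run of identical bases in this pair was 23, shorter than a read of 50 bases. H2afz and H2afv encode the 2 forms of histone H2A.Z, and their coding sequences of 387 bases differed at 81 bases and at 3 of 128 residues. Capitals again mark the bases that differ within the pair.
H2afz: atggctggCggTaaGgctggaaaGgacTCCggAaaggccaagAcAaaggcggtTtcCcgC
H2afv: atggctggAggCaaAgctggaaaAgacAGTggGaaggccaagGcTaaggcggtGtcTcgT
The longest identical run in the H2A.Z pair was 14 bases. H2afx encodes H2A.X, the variant whose tail serine is phosphorylated around broken DNA. The end of its coding sequence is shown with the codons of that serine (residue 140 of 143, counting the first methionine) and of the glutamine after it in capitals.
H2afx coding end: aaggcctcgcaggccTCTCAGgagtactga
Among the 9 genes, H2afx alone carried a perfect histone-type stem-loop in an annotated coding transcript (a stem of 6 bases that begins with GG and a loop of TTTC or TTTA), 46 bases after its stop codon. The stem-loop is in capitals.
H2afx stem-loop: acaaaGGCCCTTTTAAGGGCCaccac
The same pattern was present in 41 of 67 annotated cluster histone genes and in 12 of 21825 other protein-coding genes (0.055%). Transcripts that end at such a stem-loop have no poly-A tail. The libraries were made by a poly-A method, so the H2afx levels given here cover its transcripts with a tail, as far as that selection held. The share of H2afx transcripts that end at the stem-loop was not measured.

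The genes lie on separate chromosomes for the most part (GRCm38). H2afx (chr9:44334694-44336077, plus strand) lies on the chromosome of Cryab, with 6.42 Mb between them. H2afz is at chr3:137864487-137866922 (plus), H2afv at chr11:6427229-6444443 (minus), H2afy at chr13:56073619-56136361 (minus) and H2afj at chr6:136808244-136810074 (plus). H3f3a is at chr1:180800832-180813943 (minus), H3f3b at chr11:116021912-116027962 (minus), H1f0 at chr15:79028450-79030504 (plus) and H1fx at chr6:87980421-87981637 (minus).

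The counts are of reads with 1 place in the genome, so sequence that a gene shares with genes elsewhere in the genome is lost from its count. Of the 1113 distinct words of 50 bases in annotated coding transcripts of H2afz, 710 (63.8%) were also present in transcripts of 6 other genes, 620 of them in Tmcc1, a protein-coding gene, and 4 of the 6 genes were pseudogenes. None of these 6 genes overlaps H2afz. For H3f3a 956 of 3273 words (29.2%) were shared, over 42 other genes of which 38 were pseudogenes, with 457 of them (14%) in genes elsewhere and the other 499 in overlapping genes alone. The share with genes elsewhere was 8.4% for H3f3b, 6.14% for H2afx and 2.19% for H2afj, and 0 for H2afv, H2afy, H1f0 and H1fx. The H2afz and H3f3a levels are therefore uncertain. Words shared with overlapping genes alone have 1 place in the genome. H3f3a overlapped Gm17275 and H3f3aos, genes on the other strand, and H2afx, H2afy, H2afj, H1f0 and H1fx each overlapped 1 gene on the other strand as well, and H1fx also Gm47286 on its own strand. The strand setting of the counting is not stated, so reads of such pairs cannot be told apart.

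Levels between genes were compared as CPM (a gene's share of the library's reads on the usual CPM scale, after TMM scaling between libraries) per kb of the gene length implied by the deposited RPKM. In the Cryaa line H3f3b had the highest level, with a median of 39.9 CPM per kb over 9 libraries and a range of 26.8 to 69.5. H2afv followed at 20.4 and H1f0, the linker histone H1.0 of non-dividing cells, at 16.9 CPM per kb. H2afx (8.78), H2afj (5.53), H2afy (4.42), H2afz (4.203), H1fx (3.92) and H3f3a (1.34) were lower. Of the 8 neighbouring pairs in this order, H1f0 and H2afx alone had ranges that did not overlap. The order in the Cryab line was H3f3b (34.4), H2afv (13.7), H1f0 (11.8), H2afj (7.53), H2afx (5.06), H2afy (2.62), H2afz (2.23), H3f3a (1.94) and H1fx (1.71), and there H3f3b and H2afv alone had separate ranges. Per 1000 words that no other gene shares, overlapping genes included, a scale chosen after seeing the data, the median of H2afz was 18.5 in the Cryaa line and 9.84 in the Cryab line, rank 4 in both, while H3f3a was at 2.03 and 2.94, ranks 9 and 8. On that scale H2afy was at 15.4 and 9.09, rank 5 in both lines, H2afx moved to ranks 6 and 7 and H2afj to ranks 7 and 6, and in the Cryab line H1f0 (14.2) passed H2afv (13.7).

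**Figure D1:**
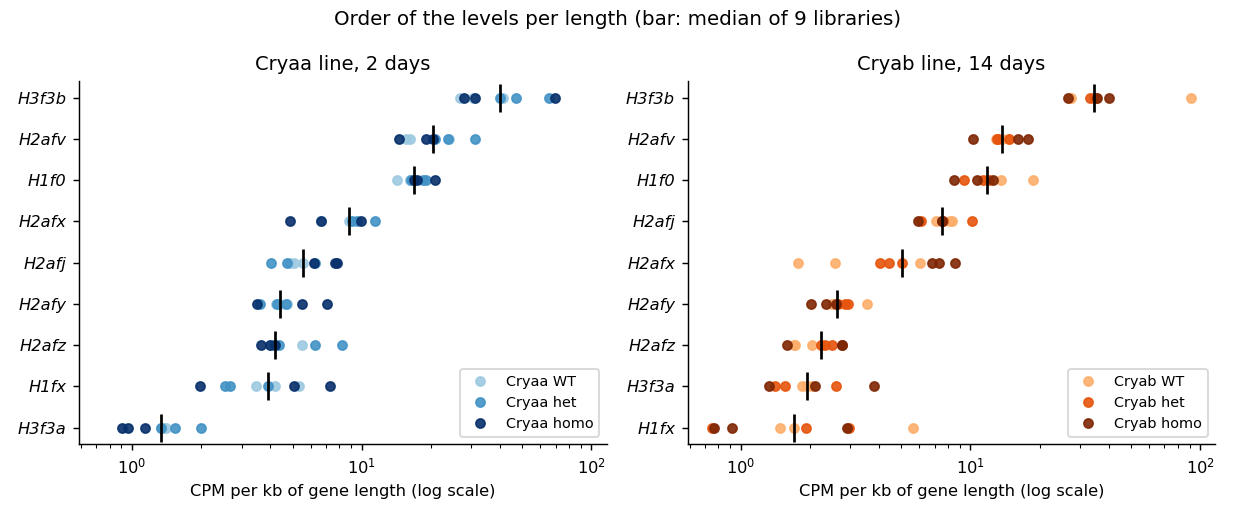
Levels of the 9 genes as CPM per kb of gene length on a log axis, 1 point per library coloured by group, with a bar at the median of the 9 libraries of a line. H3f3b is highest in both lines (medians 39.9 and 34.4), and H3f3a, which encodes the same protein, lies at 1.34 and 1.94.

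Library totals lay between 14272174 and 29639719 counts. Of 9 lens fibre markers 8 passed the filter on low counts and Lim2 was at 0 in every library, and all 5 lens epithelium markers passed. Some libraries stood apart. Cryab-WT replicate 1 had 859.5 CPM of Fos, an immediate early gene, against at most 27.7 in any other library. Cryaa-R49C-homo replicate 1 held 2.53% of its counts in Gm42418 against 24.5% and 42.6% in replicates 2 and 3, and its summed fibre marker level was 68020 CPM against 34730 and 19610. The library scaling differed between the lines, with TMM factors of 1.203 to 2.266 for Cryaa libraries and 0.488 to 0.7737 for Cryab libraries.

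To ask whether the crystallin mutations changed the replacement variants, each mutant group was compared with the WT group of its line by edgeR's quasi-likelihood test with Benjamini-Hochberg adjustment over 13938 genes. An adjusted p of at most 0.05 was called a change. None of the 9 was called in Cryaa-R49C-het against WT, where 0.00717% of all tested genes were called, or in Cryaa-R49C-homo against WT, where 9.79% were called. None was called in Cryab-R120G-het against WT (0.00717% of all genes) or in Cryab-R120G-homo against WT (0.0502%, 7 genes, and 18 genes with the replicate number as a block). Homo against het also gave 0 of 9 in each line, beside 8.32% of all genes in the Cryaa line and 0% in the Cryab line. At an unadjusted p under 0.05 the members numbered 0, 1, 0 and 2 in the comparisons with WT, in the order given, beside 5.09%, 24.3%, 3.82% and 6.1% of all genes, and 4 and 1 in homo against het, beside 23.7% and 1.97%. DESeq2 also called 0 of 9 in each of these comparisons, and edgeR's likelihood-ratio test called H2afx alone, in Cryab-R120G-homo lenses. In simulated counts the quasi-likelihood test found 25%, 28%, 30% and 19% of log2 changes of 1 in the comparisons with WT, in the order given. So 0 calls do not show that a member was unchanged.

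The median log2 change of the 9 genes was 0.24 in Cryaa-R49C-het and 0.14 in Cryaa-R49C-homo against WT, beside -0.01 and 0.00 over all genes. It was -0.04 in Cryab-R120G-het and -0.17 in Cryab-R120G-homo against WT, beside 0.00 over all genes in each. With library size in place of TMM scaling the median of all genes was 0.21, 0.41, 0.21 and 0.37 in these 4 comparisons, and 2, 3, 3 and 2 members, none of them called, had the opposite direction. Libraries of the groups compared did not overlap for 2 members in Cryaa-R49C-het, 3 in Cryaa-R49C-homo, 1 in Cryab-R120G-het and 1 in Cryab-R120G-homo against WT. Over all genes that share was 21.9%, 24.5%, 10.1% and 9% in the same order. In homo against het it was 3 members in the Cryaa line and 2 in the Cryab line, beside 22% and 6.86% of all genes.

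**Figure D2:**
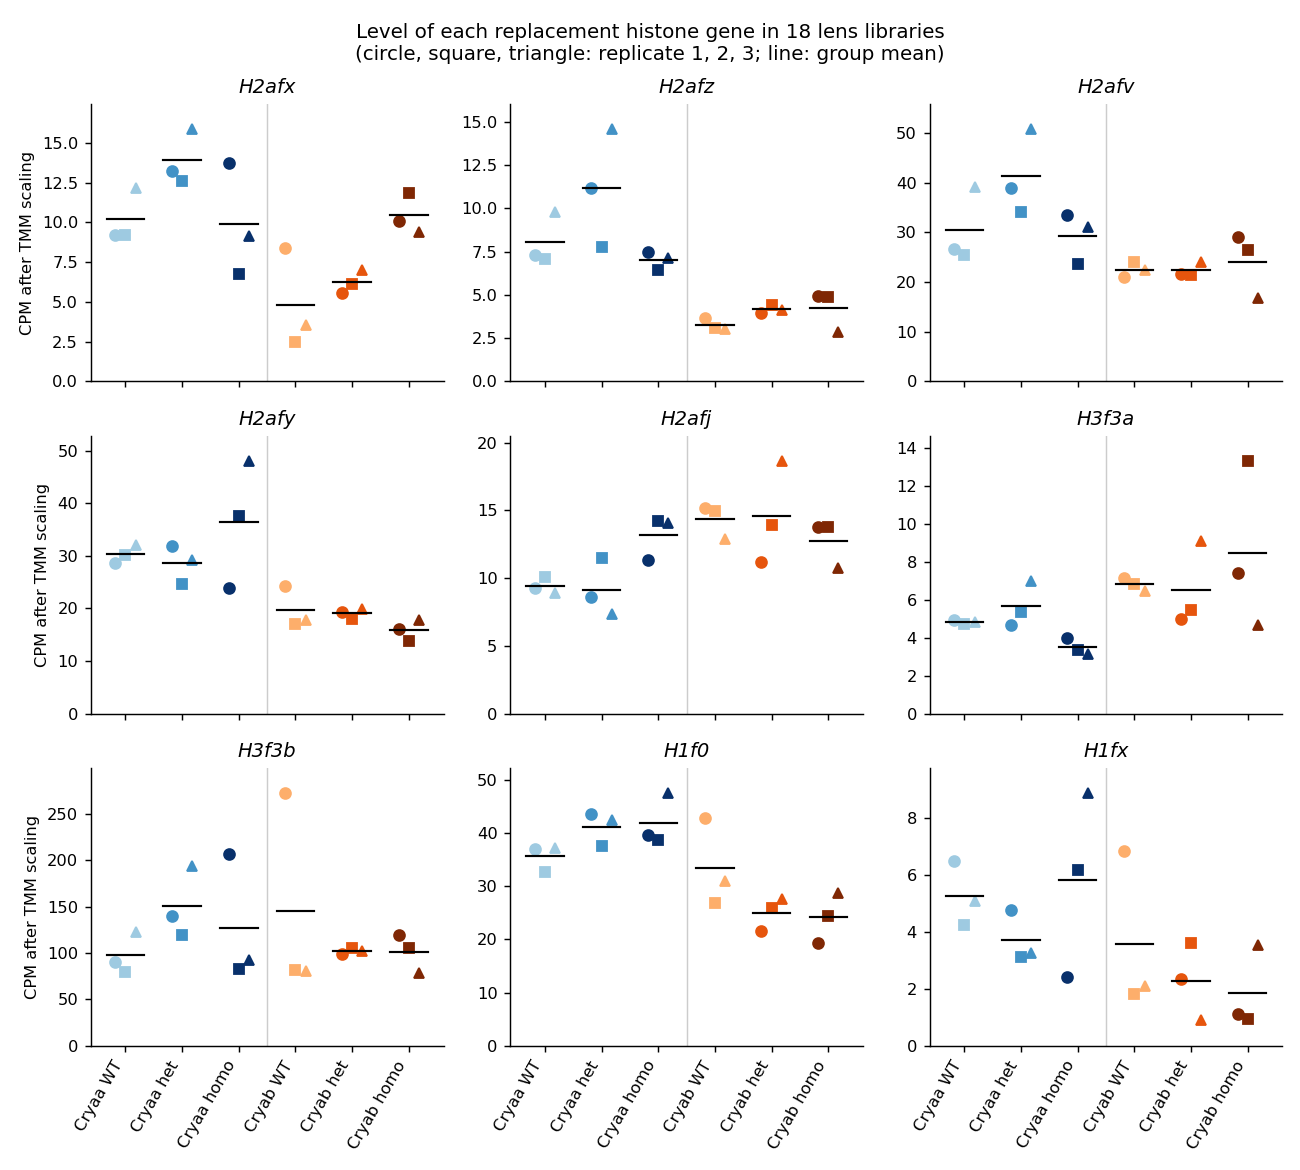
CPM after TMM scaling of each gene in each library, by group on the horizontal axis, with marker shape for the replicate and a line at the group mean. H2afx in the Cryab line runs from 2.47 in a WT library to 11.8 in a homo library, and H3f3b stands at 272.5 in Cryab-WT replicate 1.

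H2afx showed the largest difference of any member in a mutant group. In the Cryab line its levels were 8.37, 2.47 and 3.56 CPM in WT, 5.59, 6.13 and 7.01 CPM in het, and 10.1, 11.8 and 9.40 CPM in homo lenses. All 3 homo libraries lay above all WT and all het libraries, and the het libraries overlapped with WT through WT replicate 1. The log2 fold change of homo against WT was 1.16 ± 0.33 (SE, n = 3 per group), with an unadjusted p of 0.00179 and an adjusted p of 0.452 by edgeR's quasi-likelihood test. Whether it was called depended on the fit and on 1 library. Without Cryab-WT replicate 1 the log2 change was 1.80 (adjusted p = 0.0226 by the same edgeR test), without that library and Cryaa-R49C-homo replicate 1 it was 1.80 (edgeR adjusted p = 0.000992), over every gene with a count it was 1.17 (edgeR adjusted p = 0.00574), by the edgeR likelihood-ratio test 1.545 (adjusted p = 0.000646), and by DESeq2 1.17 (adjusted p = 0.171).

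Markers of other eye tissues also differed among these libraries. The summed level of 5 markers (Gnat1, Pde6b, Rcvrn, Sag and Crx, all counted) was 502, 14.1 and 48.8 CPM in Cryab-WT replicates 1 to 3, 377, 179 and 68.3 CPM in the het replicates, and 776, 390.5 and 132 CPM in the homo replicates. The library with the fewest photoreceptor reads was thus also the one with the least H2afx, while WT replicate 1, with 502 CPM of these markers, had less H2afx than homo replicate 3, with 132 CPM. Across the 9 Cryab libraries Pearson's r between log2 H2afx and the log2 marker sum was 0.813, and in the 9 Cryaa libraries, where the sum was 6.38 to 36.6 CPM, it was 0.506. The 5 macrophage markers, at a sum of 0.467 to 2.31 CPM in Cryab-WT and 1.76 to 3.54 CPM in homo libraries, gave an r of 0.845 in the Cryab line. The 7 markers of pigment and ciliary epithelium summed to 6.17, 7.14 and 7.64 CPM in Cryab-WT, 51.65, 24.6 and 17.2 CPM in het, and 26.1, 27.0 and 15.3 CPM in homo libraries, so that both mutant groups lay above WT, and r with H2afx was 0.435. In Cryab-R120G-homo against WT edgeR called 0 of these 7 and DESeq2 called 1, higher. By edgeR 5 of them had an unadjusted p under 0.05, beside 6.1% of all genes, and the median log2 change was 1.84. Such a p was found for 0 of the 5 photoreceptor markers and 2 of the 5 macrophage markers, with medians of 1.13 and 0.47. The correlated levels share the library and its scaling, and the part of other cell types in the H2afx difference was not tested.

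**Figure D3:**
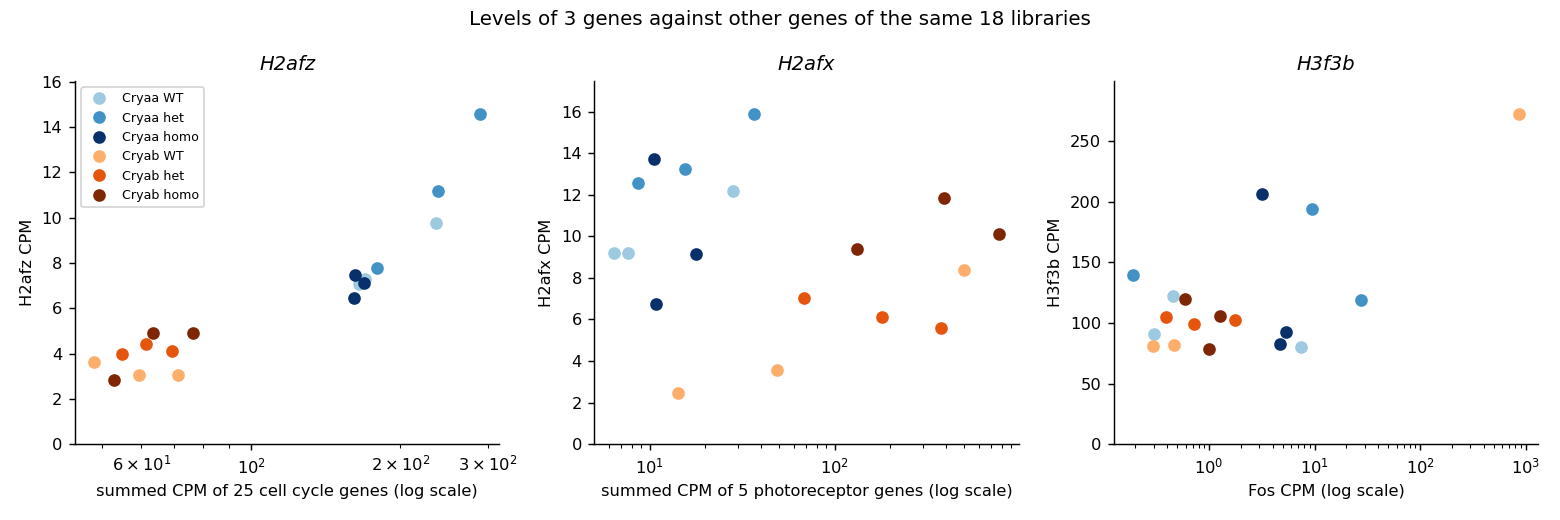
CPM of H2afz, H2afx and H3f3b in the 18 libraries against the summed CPM of cell cycle genes, the summed CPM of photoreceptor genes and the CPM of Fos, with log horizontal axes, linear vertical axes and points coloured by group. H2afz rises with the cell cycle sum over the Cryaa libraries (r = 0.979), and Cryab-WT replicate 1 is alone at 859.5 CPM of Fos and 272.5 CPM of H3f3b.

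In the Cryaa line H2afx was at 9.20, 9.19 and 12.2 CPM in WT, 13.2, 12.6 and 15.9 CPM in het, and 13.7, 6.76 and 9.16 CPM in homo lenses. The het libraries lay above the WT libraries, with a log2 change of 0.45 ± 0.30 (SE) and an edgeR adjusted p of 0.836. Homo replicate 1 was at the het level and the other homo replicates were below all WT libraries. Without that replicate H2afx was lower in homo than in het lenses by a log2 change of -0.81 (edgeR adjusted p = 0.0499). In that fit 4102 of 13938 genes were called, in place of 1160. For H2afx the homo effect in the Cryaa line minus that in the Cryab line was -1.20 ± 0.45 (SE, log2), with an edgeR adjusted p of 0.175. It was called by the edgeR likelihood-ratio test (-1.67, adjusted p = 0.00213), without Cryab-WT replicate 1 (-1.835, adjusted p = 0.00997), without Cryaa-R49C-homo replicate 1 (-1.53, adjusted p = 0.0194) and without both (-2.16, adjusted p = 8.89e-05). Over all genes these settings called 1249 of 26547, and 453, 1812 and 1758 of 13938. By the quasi-likelihood test 0 of the 9 genes were called for a difference between the lines, beside 2.91% of all genes for the homo effect and 0% for the het effect, and 3 and 1 members had an unadjusted p under 0.05, beside 15.4% and 2.53% of all genes. DESeq2 also called 0 of 9 for both. In simulated counts the edgeR test found 3% and 1% of log2 changes of 1 there, so 0 calls do not show that the effects were alike.

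The genes most alike H2afx over the 18 libraries, with the mean of each line removed, were Six6 (Pearson's r of log2 CPM 0.867), Opn1sw, the short-wavelength cone opsin (0.843), and Vax2os (0.835). Of 12 genes of H2A.X signalling, among them the kinases Atm and Atr and the reader Mdc1, 1 was called in Cryaa-R49C-homo against WT by the edgeR test and by DESeq2, beside 9.79% of all genes called by edgeR. There 2 had an unadjusted p under 0.05 by edgeR, beside 24.3% of all genes. In the other comparisons with WT both tools called 0. The genes at an unadjusted p under 0.05 numbered 0 in Cryaa-R49C-het and 1 in each Cryab mutant, beside 5.09%, 3.82% (Cryab-R120G-het) and 6.1% (Cryab-R120G-homo) of all genes. The called gene was Ppp4c, the catalytic subunit of a phosphatase that acts on phosphorylated H2A.X, with a log2 change of -1.05 ± 0.32 (SE, edgeR adjusted p = 0.0385). It was called without homo replicate 1 (-1.04, edgeR adjusted p = 0.043), where 3085 of 13938 genes were called. Without WT replicate 1 or 2 or homo replicate 2 or 3 it was not called. The level of Ppp4c was 4.70 to 7.67 CPM in WT and 2.93 to 3.11 CPM in homo lenses. The median log2 change of the 12 genes in that comparison was 0.02, beside 0.00 over all genes.

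Among the H2A.Z genes the homo libraries of the Cryaa line lay below the het libraries, by differences that were not called. In the Cryaa line H2afz was at 7.29, 7.06 and 9.78 CPM in WT, 11.2, 7.78 and 14.6 CPM in het, and 7.47, 6.44 and 7.11 CPM in homo lenses. H2afv was at 26.6, 25.4 and 39.1 CPM in WT, 38.9, 34.0 and 50.8 CPM in het, and 33.4, 23.7 and 31.0 CPM in homo lenses. For both genes, replicate 3 was the highest library in WT and in het, and in homo lenses replicate 1 was the highest. Homo against het gave a log2 change of -0.67 ± 0.24 for H2afz (SE, edgeR adjusted p = 0.0841) and -0.49 ± 0.23 for H2afv (adjusted p = 0.2). The H2afz difference was called without Cryaa-R49C-homo replicate 1 (-0.72, edgeR adjusted p = 0.034) and without Cryaa-R49C-het replicate 2 (-0.88, adjusted p = 0.0453). In these fits 4102 and 590 of 13938 genes were called.

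At 14 days, in the Cryab line, H2afz lay at 3.63, 3.07 and 3.04 CPM in WT, 3.97, 4.44 and 4.13 CPM in het, and 4.91, 4.89 and 2.83 CPM in homo lenses. The het libraries were above the WT libraries, and homo replicate 3 was below both groups. The log2 change against WT was 0.37 ± 0.27 in het (SE, edgeR adjusted p = 1) and 0.39 ± 0.27 in homo lenses (adjusted p = 0.922). H2afv ranged from 16.8 to 29.1 CPM there, with a log2 change of -0.01 ± 0.23 in het and 0.10 ± 0.23 in homo lenses against WT. With line means removed, H2afz and H2afv had the highest correlation of any pair of members (r = 0.845 over 18 libraries).

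H2afz moved with the cell cycle list in the Cryaa line. The summed level of 25 cell cycle genes was 170, 165 and 236 CPM in WT, 239, 180 and 289 CPM in het, and 162, 161 and 169 CPM in homo lenses, in the same order of libraries as above. Pearson's r of the log2 values over these 9 libraries was 0.979 for H2afz and 0.893 for H2afv. In the Cryab line, where the sum was 48.2 to 76.4 CPM, r was 0.401 and 0.677. Sums of tissue markers also went with the H2A.Z genes. For the photoreceptor sum r was 0.779 with H2afz and 0.812 with H2afv in the Cryaa line, and for H2afz in the Cryab line it was 0.713 with the macrophage, 0.651 with the photoreceptor and 0.641 with the pigment and ciliary epithelium sum. The part of these tissues in the H2A.Z levels was not tested. The points share library and scaling. Of the 25 genes, 0 were called in Cryaa-R49C-het and 0 in Cryaa-R49C-homo against WT, with medians of 0.45 and -0.26 on the log2 scale, and 4 were lower in homo against het, beside 8.32% of all genes called. In both comparisons of Cryab mutants with WT 0 were called. DESeq2 called 0 in each comparison with WT as well, and at an unadjusted p under 0.05 there were 3 in Cryaa-R49C-het, 1 in Cryaa-R49C-homo, 4 in Cryab-R120G-het and 2 in Cryab-R120G-homo. Over all genes that share was 5.09%, 24.3%, 3.82% and 6.1%. In Cryaa-R49C-homo against het 14 of the 25 had such a p, beside 23.7% of all genes, and the median log2 change was -0.65. DESeq2 called 6 lower there.

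Both H2A.Z promoters held CCAAT, the box bound by NF-Y, on one or the other strand. The 250 bases before each start site are shown (RefSeq, GRCm38.p6), with CCAAT and its reverse complement ATTGG in capitals.
H2afz promoter (chr3:137864237-137864486, plus strand): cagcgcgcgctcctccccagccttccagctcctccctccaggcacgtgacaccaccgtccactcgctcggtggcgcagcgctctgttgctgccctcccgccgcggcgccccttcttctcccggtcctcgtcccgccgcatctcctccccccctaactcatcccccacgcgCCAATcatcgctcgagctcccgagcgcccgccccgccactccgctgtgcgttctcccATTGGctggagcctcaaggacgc
H2afv promoter (chr11:6444444-6444693, minus strand): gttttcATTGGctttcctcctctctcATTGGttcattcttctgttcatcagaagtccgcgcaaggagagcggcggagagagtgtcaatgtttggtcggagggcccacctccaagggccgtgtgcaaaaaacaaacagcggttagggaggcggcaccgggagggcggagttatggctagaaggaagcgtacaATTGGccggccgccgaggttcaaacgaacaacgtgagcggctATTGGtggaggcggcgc
H2afz had 2 such matches and H2afv 4. H3f3b also had 4, H2afj 3 and H3f3a 1, while H2afy, H1f0 and H1fx had 0. Whether the matches bear on the levels was not tested. Of all 32851 promoter windows of this length 33.8% held at least 1 match, 10.1% at least 2 and 2.79% at least 3. Windows were matched for 8 of the 9 genes, and 5 of the 8 held a match.

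Of 12 genes for H2A.Z exchange, the subunits of the SRCAP and p400 complexes and the H2A.Z chaperone Anp32e among them, 1 rose and 1 fell in Cryaa-R49C-homo lenses, where 9.79% of all genes were called. DESeq2 called 1 higher and 2 lower there, and 4 had an unadjusted p under 0.05 by edgeR, beside 24.3% of all genes. Znhit1, an SRCAP subunit, was at 6.87 to 10.4 CPM in WT and 13.3 to 17.95 CPM in homo lenses (log2 change 0.75 ± 0.21 SE, edgeR adjusted p = 0.0262). Vps72, the SRCAP subunit that binds H2A.Z, was at 10.1 to 14.65 CPM in WT and 4.02 to 10.02 CPM in homo lenses (-0.92 ± 0.26, edgeR adjusted p = 0.0281). Without homo replicate 1 both were called (0.76 and -1.37, edgeR adjusted p of 0.012 and 0.000129), beside 3085 of 13938 genes. Znhit1 was not called without WT replicate 3 or homo replicate 3, nor Vps72 without WT replicate 1 or 3 or homo replicate 2 or 3. In the other comparisons with WT 0 of the 12 were called by edgeR or DESeq2, with 1, 0 and 0 at an unadjusted p under 0.05, beside 5.09%, 3.82% and 6.1% of all genes. The median log2 change in Cryaa-R49C-homo lenses was 0.02.

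H2afy encodes macroH2A1, a variant with a large added domain that is found on silent chromatin. In the Cryaa line it was at 28.7, 30.1 and 32.1 CPM in WT, 31.8, 24.7 and 29.2 CPM in het, and 23.9, 37.5 and 48.0 CPM in homo lenses. Homo replicates 2 and 3 lay above all other Cryaa libraries and replicate 1 below them. The log2 change of homo against WT was 0.27 ± 0.22 (SE, edgeR adjusted p = 0.515). Without homo replicate 1 it was 0.50 against WT (adjusted p = 0.0535) and 0.58 against het (edgeR adjusted p = 0.0188), and the homo effect in the Cryaa line minus that in the Cryab line was 0.81 (edgeR adjusted p = 0.0352). Of all 13938 genes 3085, 4102 and 1812 were called in these comparisons, in that order. Without homo replicate 1 and Cryab-WT replicate 1 the change against WT was also called (0.50, edgeR adjusted p = 0.036), beside 3360 genes. In homo replicates 1 to 3 the 4 vessel markers summed to 14.3, 53.9 and 48.4 CPM and the 5 macrophage markers to 12.8, 21.2 and 25.4 CPM, beside 12.7 to 24.6 CPM and 5.40 to 12.5 CPM in WT and het libraries. Over the 9 Cryaa libraries r with H2afy was 0.871 for the vessel sum, 0.655 for the macrophage sum and -0.894 for the sum of 9 fibre markers. The part of these cell types in the H2afy level was not tested. H2afy ranged from 13.8 to 24.2 CPM at 14 days in the Cryab line, and homo lay below het in all libraries with a log2 change of -0.27 ± 0.23 (edgeR adjusted p = 1).

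H2afj encodes H2A.J, a variant that accumulates in senescent cells. It was at 9.24, 10.1 and 8.86 CPM in Cryaa-WT, 8.63, 11.5 and 7.33 CPM in het, and 11.3, 14.2 and 14.0 CPM in homo lenses. All homo libraries were above all WT libraries, and homo replicate 1 was just below het replicate 2. The log2 change against WT was 0.49 ± 0.22 (SE, edgeR adjusted p = 0.166), and it was called with library size alone (0.90, edgeR adjusted p = 0.0176) and without homo replicate 1 (0.59, edgeR adjusted p = 0.0495), as was homo against het (0.63, edgeR adjusted p = 0.0277). Of all 13938 genes 2138 were called against WT with library size alone. Without homo replicate 1 it was 3085 against WT and 4102 against het. Over the 9 Cryaa libraries r with H2afj was -0.802 for the cell cycle sum, -0.759 for the pigment and ciliary epithelium sum, -0.675 for lens epithelium, -0.61 for fibre, 0.644 for macrophage and 0.625 for vessel markers, and the part of these in the H2afj level was not tested. Cryab libraries had H2afj at 10.8 to 18.6 CPM, with log2 changes of 0.03 ± 0.22 in het and -0.17 ± 0.22 in homo lenses against WT, the latter 0.21 with library size alone.

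Over the H3.3 pair, H3f3b gave most of the counts. In the Cryaa line H3f3b was at 90.8, 79.8 and 122.5 CPM in WT, 139, 119 and 194 CPM in het, and 207, 82.7 and 92.9 CPM in homo lenses. Homo replicate 1 was the highest and the other homo replicates were among the lowest. The log2 changes against WT were 0.63 ± 0.41 in het (SE, edgeR adjusted p = 0.836) and 0.38 ± 0.40 in homo lenses (adjusted p = 0.621). Without homo replicate 1 the change of homo turned to -0.15 against WT (edgeR adjusted p = 0.851) and was -0.78 against het (adjusted p = 0.212). The difference from het was called when Cryab-WT replicate 1, which is in neither group, was left out as well (-0.78, edgeR adjusted p = 0.00915). In that fit 4513 of 13938 genes were called. Cryab lenses had H3f3b at 272.5, 81.5 and 81.0 CPM in WT, 98.8, 105 and 102 CPM in het, and 119, 106 and 78.9 CPM in homo lenses. WT replicate 1 exceeded every other library of the series. The log2 change of homo against WT was -0.51 ± 0.41 (edgeR adjusted p = 0.943) and turned to 0.32 without that replicate. Fos, chosen after its values were seen, was at 859.5 CPM in WT replicate 1 and at 0.297 to 1.75 CPM in the other 8 Cryab libraries, and its r with H3f3b over the 9 libraries was 0.93. In the 9 Cryaa libraries, with Fos at 0.191 to 27.7 CPM, r was 0.0133. How these genes came to be high in WT replicate 1 was not tested.

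H3f3a was at 4.94, 4.69 and 4.80 CPM in Cryaa-WT, 4.68, 5.38 and 7.005 CPM in het, and 3.99, 3.36 and 3.16 CPM in homo lenses. Homo lay below WT and below het in all libraries. The log2 change of homo was -0.45 ± 0.29 against WT (SE, edgeR adjusted p = 0.372) and -0.70 ± 0.29 against het (adjusted p = 0.149). Over the Cryaa libraries r with H3f3a was 0.739 for fibre, 0.614 for lens epithelium, 0.295 for photoreceptor, -0.7 for vessel and -0.669 for macrophage markers. It was 0.693 both for the pigment and ciliary epithelium sum and for the cell cycle sum. The part of these in the H3f3a level was not tested. Cryab libraries ranged from 4.66 to 13.3 CPM, both in the homo group, and the log2 change of homo against WT was 0.32 ± 0.30 (edgeR adjusted p = 0.95). It turned to -0.17 without homo replicate 2, the library at 13.3 CPM. Given its shared sequence, the H3f3a counts, 55 to 281 a library, are uncertain. Of 8 genes for H3.3 deposition, among them the chaperone Hira and the Atrx and Daxx pair, 0 were called in any comparison of mutant with WT, at medians of -0.16, 0.21, -0.08 and 0.07 on the log2 scale for Cryaa-R49C-het, Cryaa-R49C-homo, Cryab-R120G-het and Cryab-R120G-homo, where 0.00717%, 9.79%, 0.00717% and 0.0502% of all genes were called. DESeq2 called 0 as well, and at an unadjusted p under 0.05 there was 1 in Cryaa-R49C-het and 0 in the others. Over all genes that share was 5.09%, 24.3%, 3.82% and 6.1%, in the same order.

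Linker histones bind DNA where it enters and leaves the nucleosome. H1f0 was at 37.1, 32.7 and 37.3 CPM in Cryaa-WT, 43.7, 37.6 and 42.5 CPM in het, and 39.8, 38.7 and 47.6 CPM in homo lenses. Both mutant groups lay above WT in all libraries, with log2 changes of 0.21 ± 0.21 in het (SE, edgeR adjusted p = 0.85) and 0.23 ± 0.21 in homo (adjusted p = 0.541). In the Cryab line it was at 42.9, 26.9 and 30.9 CPM in WT, 21.5, 26.0 and 27.7 CPM in het, and 19.4, 24.4 and 28.8 CPM in homo lenses. WT replicate 1 was again the highest. The log2 change there was -0.42 ± 0.21 in het (edgeR adjusted p = 1) and -0.47 ± 0.21 in homo (adjusted p = 0.782), and without WT replicate 1 it was -0.205 and -0.26. The homo effect in the Cryaa line minus that in the Cryab line was 0.70 ± 0.29 (edgeR adjusted p = 0.239). Over the libraries of a line r of H1f0 with the pigment and ciliary epithelium sum was -0.58 (Cryaa) and -0.789 (Cryab). For the fibre sum it was -0.659 and 0.46, and for Fos -0.0874 and 0.763. The part of these in the H1f0 level was not tested.

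H1fx encodes the linker variant H1.X. It had the fewest counts of the 9 genes, 13 to 233 a library, and lay at 2.40 to 8.86 CPM in Cryaa libraries and at 0.911 to 6.83 CPM in Cryab libraries. Its highest Cryab value was again in WT replicate 1, and its lowest and highest Cryaa values were both in homo lenses. The log2 change against WT lay between -0.93 ± 0.65 in Cryab-R120G-homo and 0.14 ± 0.56 in Cryaa-R49C-homo (SE), and none was called. Both ends of this range rested on 1 library, since the first was -0.10 without Cryab-WT replicate 1 and the second 0.51 without Cryaa-R49C-homo replicate 1. Without Cryab-WT replicate 1 the change in Cryab-R120G-het was 0.24. H1fx and H2afy varied together (r = 0.704 over 18 libraries, line means removed). The genes most alike H1fx included Srf and Atp9b (0.891 and 0.89), those most alike H3f3b Srsf7 and Id3 (0.883 and 0.836), those most alike H2afz Nsg1 and Clcn4 (0.9 and 0.845), and those most alike H2afy Kif21a and Jup (0.889 and 0.876).

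**Figure D4:**
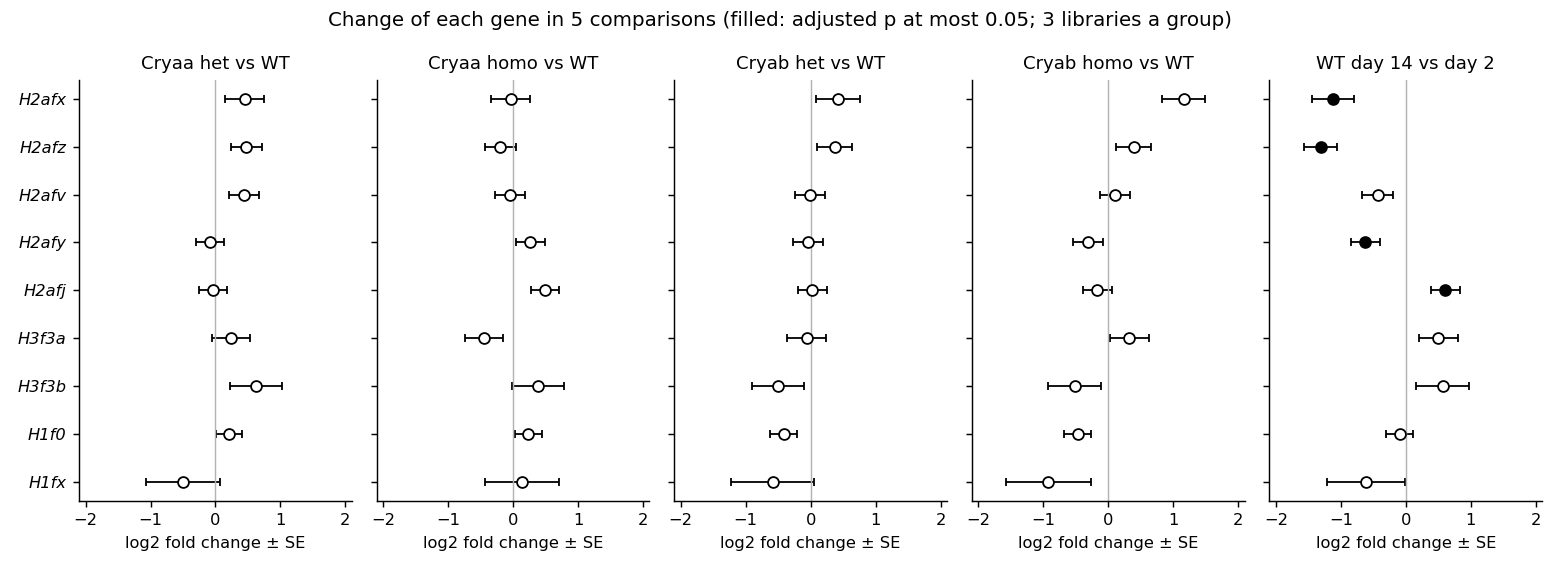
log2 fold change with its SE for the 9 genes in 5 comparisons of 3 against 3 libraries. No circle is filled in the comparisons of mutant with WT, where the largest change is that of H2afx in Cryab-R120G-homo lenses (1.16), and 4 are filled between the WT groups.

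The WT groups were compared to ask how the variants differed between the lines at their ages. Of the 9 genes 4 were called, beside 23.2% of all genes, 1 higher and 3 lower at 14 days in the Cryab line than at 2 days in the Cryaa line. At an unadjusted p under 0.05 there were 4, beside 35.6% of all genes. Libraries did not overlap for 6 of the 9, beside 43.2% of all genes. H2afz fell by 1.31 on the log2 scale (SE 0.26, edgeR adjusted p = 0.000926) and H2afx by 1.12 (SE 0.32, adjusted p = 0.0151). The H2afx change was -1.76 without Cryab-WT replicate 1, and it was not called without Cryab-WT replicate 2 (-0.80, edgeR adjusted p = 0.101), Cryab-WT replicate 3 (-0.95, adjusted p = 0.0852) or Cryaa-WT replicate 3 (-0.98, adjusted p = 0.0746). H2afy was at 24.2, 17.0 and 17.8 CPM in Cryab-WT, below all Cryaa-WT libraries, with a log2 change of -0.63 ± 0.23 (edgeR adjusted p = 0.0495). H2afj was at 15.2, 14.95 and 12.9 CPM in Cryab-WT, above all Cryaa-WT libraries, with a log2 change of 0.61 ± 0.22 (edgeR adjusted p = 0.0489). The other 5 were not called, with log2 changes of -0.43 for H2afv, 0.50 for H3f3a, 0.57 for H3f3b, -0.09 for H1f0 and -0.61 for H1fx. H2afz was called under each of the 15 alternative settings, H2afx under 11, H2afy under 9 and H2afj under 4, of which library size alone called it lower. The members called numbered 2, 2 and 1 without Cryaa-WT replicates 1, 2 and 3 in turn, and 1 without Cryab-WT replicate 2 or without replicate 3. H2afj was not called without any 1 of the WT libraries (adjusted p of 0.0674 to 0.149 by edgeR). H3f3b changed direction without Cryab-WT replicate 1 (-0.27), and H1fx was called without both libraries that stood apart (-1.435, edgeR adjusted p = 0.0416).

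These WT groups also differed in other genes. Of the 25 cell cycle genes 20 were lower at 14 days and 0 higher, at a median log2 change of -1.53 beside -0.07 over all genes. Fibre markers were higher for 5 of 8 tested, photoreceptor markers higher for 4 of 5, macrophage markers lower for 5 of 5, vessel markers for 3 of 4, pigment and ciliary epithelium markers for 5 of 7 and lens epithelium markers for 2 of 5, all under TMM scaling, and 0 of 5 erythrocyte markers were called by edgeR or DESeq2, with 0 at an unadjusted p under 0.05. In whole lenses, fewer cells of a type and less RNA per cell cannot be told apart. With library size in place of TMM scaling the median of all genes moved to -1.61. Relative to that median H2afz was at -1.30, H2afx at -1.12, H2afy at -0.59 and H2afj at 0.68, while without that reference H2afj, H3f3a and H3f3b had log2 changes of -0.93, -1.06 and -1.07, a change of direction for all 3.

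A ratio of counts within a library needs no scaling between libraries. For the tests between lines the WT, het and homo libraries of a line were pooled. The ratio of H2afz to H2afv counts was 0.2235 to 0.287 in the 9 Cryaa libraries and 0.128 to 0.207 in the 9 Cryab libraries, with no overlap. The mean log2 ratio was -1.96 ± 0.15 (SD, n = 9) against -2.58 ± 0.22, a difference of -0.62 ± 0.09 (SE, Cryab minus Cryaa, adjusted p = 0.000123 over 3 ratios, two-sided exact permutation test). In WT libraries alone it was -0.89, where 3 against 3 cannot go below an exact p of 0.1.

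H3f3b to H3f3a gave ratios of 17 to 51.9 over Cryaa libraries and 7.94 to 38.1 over Cryab libraries, which overlapped. The difference of the mean log2 ratios was -0.74 ± 0.27 (SE, n = 9 per line, adjusted p = 0.0191, exact permutation test), and in WT libraries alone it was -0.16. The test thus takes in differences between the pooled genotypes and is not of line and age alone. Within the Cryaa line the ratio was 17 to 25.5 in WT, 22.1 to 29.8 in het and 24.6 to 51.9 in homo lenses. H1f0 to H1fx was between 5.37 and 16.6 in Cryaa libraries and between 6.27 and 30.4 in Cryab libraries, with a difference of 0.59 ± 0.33 (SE, n = 9 per line, adjusted p = 0.0932, exact permutation test). It passed the threshold without Cryab-WT replicate 1 (0.72, adjusted p = 0.0431 over 17 libraries) and without Cryaa-R49C-homo replicate 1 (0.71, adjusted p = 0.0474).

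**Figure D5:**
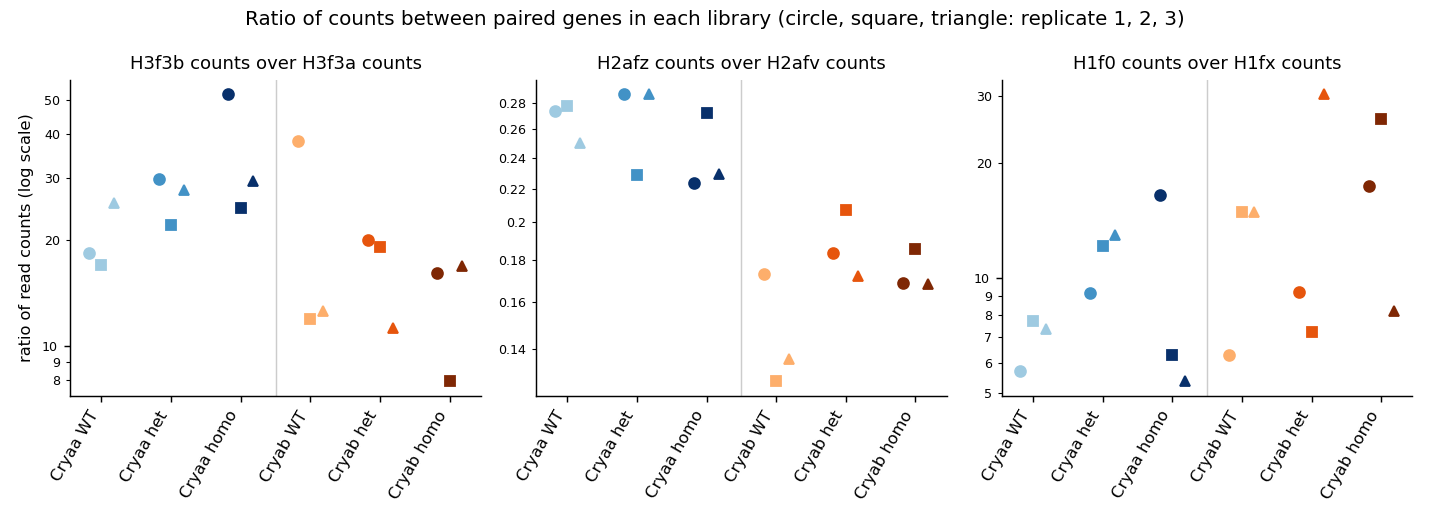
Ratio of read counts between 3 pairs of genes in each library on log axes, by group, with marker shape for the replicate. The H2afz to H2afv ratio is at least 0.2235 in every Cryaa library and at most 0.207 in every Cryab library, while the other ratios overlap between the lines.

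Of 10 general histone chaperones 1 rose and 1 fell in Cryaa-R49C-homo against WT, where 9.79% of all genes were called. DESeq2 called 1 higher and 3 lower there, and 7 had an unadjusted p under 0.05 by edgeR, beside 24.3% of all genes. Nap1l1 rose by 0.93 ± 0.22 (log2, SE, edgeR adjusted p = 0.00843), with 71.4 to 110 CPM in WT and 140.5 to 235 CPM in homo lenses. Nap1l4 changed by -0.92 ± 0.26 (edgeR adjusted p = 0.0256), with 226 to 331 CPM in WT and 97.7 to 227 CPM in homo lenses. Without homo replicate 1 both were called (1.097 and -1.30, edgeR adjusted p of 0.00025 and 0.000157), beside 3085 of 13938 genes. Nap1l1 was not called without WT replicate 3 or homo replicate 2, nor Nap1l4 without WT replicate 1 or 2 or homo replicate 2 or 3. Both belong to the family of nucleosome assembly proteins that carry H2A and H2B. In the same comparison fibre markers were lower for 4 of 8 tested (median log2 change -0.92), lens epithelium markers for 1 of 5 and pigment and ciliary epithelium markers for 2 of 7 (median -1.28), while vessel markers were higher for 1 of 4 and macrophage markers for 1 of 5. Their part in the partner genes' changes was not tested. The median of the 10 chaperones was -0.51, beside 0.00 over all genes. In the other comparisons with WT 0 of the 10 were called by edgeR or DESeq2, with 1, 0 and 0 at an unadjusted p under 0.05, beside 5.09%, 3.82% and 6.1% of all genes. Between the WT groups 5 of the 10 were lower at 14 days and 0 higher, beside 23.2% of all genes called in either direction.

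Of 12 other variant histones, 2 were expressed well enough to be tested, H2afy2, which encodes macroH2A2, and Cenpa, the centromeric H3 variant. H2afy2 was at 7.05 to 13.9 CPM over all libraries, and Cenpa at 3.80 to 10.7 CPM over Cryaa libraries and 1.001 to 2.41 CPM over Cryab libraries. Neither was called against WT in a mutant group by edgeR or DESeq2. The 10 others, which include testis and oocyte forms, had too few counts to be tested. Of 70 cluster histone genes 29 were tested, and 4 were higher and 1 lower in Cryaa-R49C-homo against WT, beside 9.79% of all genes called, at a median log2 change of 0.22, with the same counts by DESeq2 and 12 at an unadjusted p under 0.05 by edgeR, beside 24.3% of all genes. In the other comparisons with WT 0 were called by edgeR or DESeq2, with 0, 1 and 3 at an unadjusted p under 0.05, beside 5.09%, 3.82% and 6.1% of all genes. Canonical histone mRNAs end mainly in a stem-loop, so poly-A libraries cover only the part of them that has a tail.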

How the data were processed

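Poly-A RNA-seq was measured in 18 libraries of pooled whole lenses. The authors deposited raw read counts per Ensembl gene: single reads of 50 bases were aligned to GRCm38 with STAR 2.0.4b, and uniquely aligned, unambiguous reads were counted with featureCounts 1.4.5. The authors also deposited RPKM values, used here only for the gene length they imply, and CPM and log2 tables that were not used. The strand setting is not given in the sources used here. Reads that fit several genes were thus dropped before deposit, which lowers genes with near copies.

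Counts were tested with edgeR 4.0.16 (R 4.3.3) in 1 model of 6 groups. Genes kept by filterByExpr (13938 of 40800) were scaled by TMM and tested with the robust quasi-likelihood F test, and p-values were adjusted by Benjamini-Hochberg with a threshold of 0.05. The SE of a log2 fold change was its size over the square root of F. The study kept every gene with a count (26547 genes). That fit gave infinite prior degrees of freedom, so it was run as an alternative. Levels are CPM with TMM factors, and log2 CPM has a prior count of 2. Library totals were 14272174 to 29639719. The least counted member, H1fx, had 13 reads in Cryab-R120G-het replicate 3, a library of 25141026 counts. Low counts limit H1fx most. Correlations within a line used log2 of a summed CPM plus 1. Count ratios were compared between lines by exact permutation of 9 against 9 libraries, with the genotypes of a line pooled (scipy 1.17.1). Scripts were tested on simulated data. Replicates of a group differed by a chi-square per degree of freedom of at least 7.78, so no library was counted as a duplicate.

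Replicate numbers paired Cryab-WT with Cryab-R120G-homo (r of deviations 0.277, 0.176 and 0.156), as a feature of the data since no label ties them, and no other groups. Blocking on them changed no call of the 9 genes in that comparison and raised the calls over all genes from 7 to 18. Alternatives were DESeq2 1.42.0, a likelihood-ratio test, other scalings, each library left out and, added after seeing the data, both libraries that stood apart left out.

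The 9 genes and the gene lists were chosen with earlier results of these data known. From each list of partners, other variants and cell cycle genes, at most the 3 called genes with the largest log2 change in each comparison of mutant with WT were to be named, and for each member the 3 genes most correlated with it, of which some are given. Other genes in the text were named after their values were seen. Sequences are from GENCODE vM21 and RefSeq. One photoreceptor marker and 1 gene alike H1fx are not reported here, and the photoreceptor sum was taken over the other markers.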

Additional observations from a re-analysis of the deposited data

How the results depend on the processing

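Over 15 alternative settings (21 for the differences between the lines) the counts of members called kept their value for both het comparisons with WT, for Cryab-R120G-homo against het and for the line difference in the het effect, all at 0. For Cryaa-R49C-homo against WT (0) the count was 1 with library size alone (H2afj) and 2 without both libraries that stood apart, and 0 to 1 when each library was left out. Of all 13938 genes these settings called 2138, 3360 and 746 to 3085. For Cryaa-R49C-homo against het (0) the count was 0 to 4 when each was left out and 5 without both, beside 460 to 4102 and 4513 of all genes. For Cryab-R120G-homo against WT (0) it was 1 over every gene with a count, 1 by the likelihood-ratio test, 1 without both libraries and 0 to 1 when each was left out. For the line difference in the homo effect (0) it was 1 by the likelihood-ratio test, 1 without both and 0 to 2 when each was left out. For WT at day 14 against day 2 (4) it was 2 over every gene with a count, 8 with library size alone, 1 to 3 when each library was left out and 5 without both. In that comparison library size alone turned H2afj (-0.93), H3f3a (-1.06) and, not called in either fit, H3f3b (-1.07). Among members not called in either fit it also turned H2afy (0.14) and H2afj (0.16) in Cryaa-R49C-het, H2afx (0.35), H2afz (0.17) and H2afv (0.30) in Cryaa-R49C-homo, H2afv (0.20), H2afy (0.17) and H3f3a (0.14) in Cryab-R120G-het and H2afy (0.06) and H2afj (0.21) in Cryab-R120G-homo against WT, and H3f3b (0.18) and H1f0 (0.09) in Cryab-R120G-homo against het. The likelihood-ratio test turned H3f3b in the WT comparison (-0.05) and in Cryab-R120G-het (0.07) and Cryab-R120G-homo (0.05) against WT, where it was not called. The cause of these shifts was not tested, except that library size alone moved the median of all genes by construction.

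The replicate block gave 3 members in the WT comparison in place of 4 (H2afj 0.61, adjusted p = 0.0544 by edgeR) and changed no other call of a member. In the other group pairs the numbers were only shared. The WT libraries alone gave log2 ratio differences of -0.16 for H3f3b to H3f3a and -0.89 for H2afz to H2afv, where exact permutation of 3 against 3 cannot pass. H1f0 to H1fx ranged from 0.44 to 0.72 when each library was left out, with 0.71 without Cryaa-R49C-homo replicate 1. Over all genes, Cryab-R120G-homo against WT gave 7 calls, 302 over every gene with a count, 178 by the likelihood-ratio test and 20 by DESeq2. With the replicate block it gave 18, without Cryab-WT replicate 1 it gave 13, without each other library 1 to 3 and without both 46. The 5 named partner genes kept their direction in all 15 settings, Znhit1 and Nap1l1 being called in 12 and Vps72, Nap1l4 and Ppp4c in 9, and with library size alone the last 3 were not called (-0.52, -0.40 and -0.59). Cryaa-R49C-homo against WT gave 1364 calls (679 higher), 2678 by the likelihood-ratio test, 473 with only the groups compared 2138 with library size alone (1884 higher), 3085 without homo replicate 1, 3360 without both libraries that stood apart, and 746, 795 and 823 without WT replicate 1, WT replicate 2 and homo replicate 2. The line difference in the homo effect gave 406, with 206 to 1249 over the other fits and scalings that moved it by over 1.5 times, 1812 without Cryaa-R49C-homo replicate 1, 1758 without both, and 252 to 453 without each other library. WT at day 14 against day 2 gave 3237 calls (1634 higher) and 11596 with library size alone (157 higher), and 1809 without Cryaa-WT replicate 3. Cryaa-R49C-homo against het gave 1160 calls (654 higher), 2844 by the likelihood-ratio test, 299 with only the groups compared 1019 with library size alone (816 higher), 4102 without homo replicate 1, 4513 without both, and 460 to 610 without each other library. Over every gene with a count, the comparisons with 0 or 1 call gave 17 in Cryaa-R49C-het and 140 in Cryab-R120G-het against WT, 15 in Cryab-R120G-homo against het and 88 for the line difference in the het effect, and by the likelihood-ratio test 9, 25, 2 and 15.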
